A study of Caenorhabditis elegans with 2 samples.

Results

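Binding of the transcription factor MXL-2 was examined at 6 importin genes of Caenorhabditis elegans. The genes are imb-1, imb-2 and imb-3 of the beta family and ima-1, ima-2 and ima-3 of the alpha family. They are 6 of 19973 protein-coding genes, and they were chosen by family because imb-3 was already known to carry one of the strongest regions of these lists, so its signal is given as a description and is not tested. Whole L4 larvae of strain RW12316 were used, 48 h old and synchronised as starved L1 larvae after bleaching. All animals carry st12316, a CRISPR insertion on chromosome III that fuses mxl-2 to TY1, EGFP and 3xFLAG. Sonicated chromatin of 200 to 800 bp was precipitated in 2 biological replicates, which form 1 group with no comparison group. The labels disagree on the antibody: their description gives an antibody against GFP, and their antibody field reads mxl-2. Whole larvae mix all tissues, so a signal cannot be placed in a cell type, and a candidate's strength cannot be split into how many cells carry it and how strongly each does. A control experiment that the labels list as possible was not used here. A region or candidate was counted at a gene where its summit lay within the gene or within 2 kb of the gene's 5′ end.

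Importins carry proteins through the nuclear pore. In the classical route, importin alpha reads the nuclear localisation signal of a cargo and importin beta docks the pair at the pore, while other beta-type importins bind their cargo themselves, and RanGTP in the nucleus releases it. MXL-2 is the worm relative of mammalian Mlx, a basic helix-loop-helix leucine zipper protein that pairs with the Mondo relative MML-1 and binds E-boxes. The letters of the canonical E-box are CACGTG, which read the same on both strands.

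CACGTG sites at the importin genes without a thresholded region on chromosomes II and V are shown with those at the genes whose regions were most like that of imb-3 in both replicates. Likeness was the Euclidean distance in log2 signal over the 2 replicates, among regions in both thresholded lists, and each such region is named by the nearest protein-coding 5′ end at any distance. Each line gives 30 bases of the plus strand of WBcel235 (ce11) from RefSeq, 5′ to 3′, with the E-box in capitals. The sites lie at II:14367115-14367144 for imb-2, V:11239590-11239619 for ima-1, IV:11962198-11962227 for ZK829.7, V:12637372-12637401 for F56H9.2 and X:13353631-13353660 for mxl-3.
imb-2: cgttcgatcgatCACGTGctggacgctgtc
ima-1: aatctggttggtCACGTGttgactctaatt
ZK829.7: acatgtgcttttCACGTGcacacaaacgaa
F56H9.2: gttcatactgttCACGTGcaccacacatgt
mxl-3: tgatcaacacttCACGTGcggtacgcgtgt

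The E-box letters were the same in all 5, but their signal was not. The site of imb-2 lay in a coding exon under a candidate of signal 17.0 in the whole-experiment list, and the site of ima-1 lay under no candidate in the whole-experiment list or in either replicate's. The sites of ZK829.7, F56H9.2 and mxl-3 lay in regions of signal 990.0, 1069 and 750.3. With 1 base on either side, the sites of imb-2 and of those 3 genes read TCACGTGC and that of ima-1 reads TCACGTGT. Of the 17729 CACGTG sites of the 6 chromosomes, 261 lay inside a thresholded region of the whole-experiment list, which is 1.47%. The share was 3.58% for TCACGTGC (42 of 1174 sites, read on either strand), 1.46% for TCACGTGT (29 of 1992) and 5.13% for TCACGTGA (65 of 1267), the highest of the 10 classes. Most sites thus lay outside the regions whatever these flanking bases, and the imb-2 site had the same 2 flanking bases as the 3 sites in strong regions. The next base before the site differed: those 3 sites read ttCACGTGc and that of imb-2 reads atCACGTGc. No share was computed for that base, and its part in the signal was not tested.

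Signal here means the deposited enrichment value of a candidate, whose unit the labels do not give. All 77146 candidates common to the ranked lists of the whole experiment and the conservative list carried the same signal in both, so these share a scale and are not separate measurements. Signals of the replicates were compared as deposited, without rescaling, and the median thresholded signal was 59.1 in replicate 1 and 60.1 in replicate 2. That of the whole experiment was 82.1, so its signals are not set against those of a replicate. Each exists as a ranked list of all candidates and a thresholded list of candidates with an irreproducible discovery rate (IDR) of at most 0.01, a −log10 of 2, and the scale has a cap of 5. After overlapping lines were joined, the thresholded lists held 968 regions for the whole experiment, 448 for replicate 1 and 454 for replicate 2, and a conservative list made for both replicates held 993. Their ranked lists held 91788, 56474, 51771 and 94494 candidates. The ranked lists are permissive: 88.4% of protein-coding genes had at least 1 candidate under the same rule in replicate 1 and 87.4% in replicate 2, so a candidate alone sets a gene apart from few others.

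Of the 6 importin genes, 1 had a thresholded region, and it was imb-3 in all 4 lists. The same rule gave a region to 4.94% of protein-coding genes in the whole-experiment list, 5.07% in the conservative list, 2.33% in replicate 1 and 2.38% in replicate 2. The rule that chose these genes used these lists, so nothing is read from that comparison. The 6 genes are spread over 4 chromosomes, with imb-1, imb-3 and ima-2 on chromosome I, imb-2 on II, ima-3 on IV and ima-1 on V. They lie far apart, so no region was shared between them.

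Among the beta importins, imb-3 carried a pair of thresholded regions upstream of its 5′ end, and imb-1 and imb-2 carried none. imb-3, which encodes a relative of mammalian importin 5, lies on the minus strand at I:310981-314989 (WBGene00002077, WBcel235). Its strong region covered I:315153-315396 in intergenic sequence, with the summit 285 bp upstream of the 5′ end. The signal there was 474 in replicate 1, 398 in replicate 2 and 878 in the whole-experiment list, a mean of 436 ± 53.8 over the replicates (SD, n = 2). Its rank by signal was 11 in every thresholded list, of 448, 454 and 968 regions, and −log10 IDR stood at the cap of 5. Among the candidates of the ranked lists its rank was 13 in replicate 1, 15 in replicate 2 and 12 in the whole experiment. The signal was 8.03 times the median thresholded region in replicate 1, 6.63 times in replicate 2 and 10.7 times in the whole-experiment list. The replicates placed the summit 292 and 284 bp upstream.

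The canonical E-box nearest to this summit lies 302 to 297 bp upstream of the 5′ end of imb-3, at I:315286-315291. It was 5 bp from the summit of replicate 1, 13 bp from that of replicate 2 and 12 bp from that of the whole-experiment list. It was the only CANNTG hexamer within 50 bp of the summit in the whole-experiment list and in replicate 1, and replicate 2 had CAAGTG beside it. Among all 968 regions, 157 had CACGTG within 50 bp of the summit, which is 16.2%. The GC content of the 101 bp around the summit was 41.6%, against a median of 49.0% over the regions of that list.

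A second thresholded region lay further upstream of imb-3, at I:316236-316326, with its summit 1276 bp from the 5′ end. Its signal was 113 in replicate 1, 78.9 in replicate 2 and 187 in the whole-experiment list, with ranks of 66, 121 and 79. The summits of the pair were 981, 992 and 991 bp apart in these lists, and the stronger had 4.22, 5.05 and 4.70 times the signal of the weaker. No CACGTG lay within 50 bp of the weaker summit, where the only CANNTG hexamer was CAAATG, found at 6.20% of the 968 regions. Its −log10 IDR of 4.57, 3.62 and 4.19 lay between the limit of 2 and the cap. Having more than 1 region was uncommon over all protein-coding genes: 107 did in the whole-experiment list, which is 0.536% of them, 43 in replicate 1 and 40 in replicate 2. Genes with at least 1 region numbered 987, 465 and 476 in these lists.

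**Figure D1:**
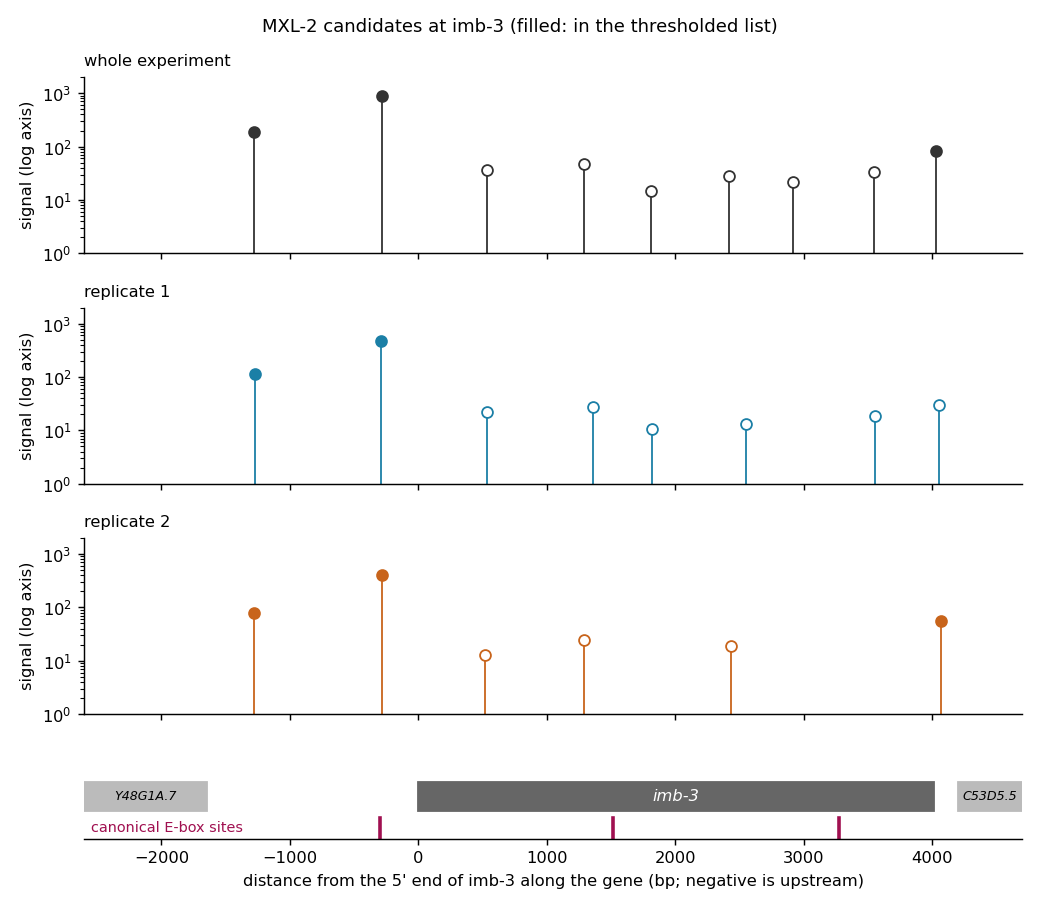
Signal of each candidate (log axis) against the distance of its summit from the 5′ end of imb-3 in bp, for the whole-experiment list and each replicate, with genes as bars and canonical E-boxes as ticks. Filled points are in the thresholded list: the regions 285 and 1276 bp upstream stand above every candidate inside the gene, and the region past the 3′ end is filled in the whole-experiment list and replicate 2 only.

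Inside imb-3, signals were of another order. The 5 other candidates of replicate 1 ran from 10.7 to 27.4, the 3 of replicate 2 from 12.9 to 24.3 and the 6 of the whole-experiment list from 15.0 to 47.0. None of these candidates was in a thresholded list. The gene holds 2 further CACGTG sites, 1512 to 1517 and 3270 to 3275 bp into it, both in coding exons, and neither lay under a candidate in these 3 lists. Of the 3 canonical E-boxes of imb-3, the upstream one was thus the only one in a thresholded region or under a candidate in these lists. The candidate 1289 bp into the gene had a −log10 IDR of 1.41 in the conservative list, the highest below the limit at any importin gene in that list, but 0.653 in the whole-experiment list, where candidates of ima-2 (0.981) and ima-1 (0.815) came nearer to the limit.

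The neighbouring genes leave imb-3 as the nearest protein-coding 5′ end of both upstream regions. On the far side lies the pseudogene Y48G1A.7, on the same strand, whose 3′ end is 1646 bp upstream of imb-3. Beyond it is xpo-2, which encodes the exportin that returns importin alpha to the cytoplasm in other species, at I:318549-323352. Its 3′ end is 3275 bp from the strong summit and its 5′ end 8078 bp away, outside the 2 kb limit. Past the other end of imb-3 a further region had its summit 20 bp outside the gene and so missed the rule, at I:310831-311090, with signal 83.7 and rank 462 of 968 in the whole-experiment list. This summit is 171 bp upstream of the 5′ end of the next gene, C53D5.5, and has no CACGTG within 50 bp. It was in the thresholded list of replicate 2 with signal 55.1, whereas in replicate 1 it was a candidate of signal 29.4 and −log10 IDR 0.690, below the limit.

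The replicates differed less at the strong region than at the weaker one, as deposited. The ratio of replicate 1 to replicate 2 was 1.19 at the strong region, a log2 ratio of 0.25, and 1.43 at the weaker one, a log2 ratio of 0.51. Over the 291 pairs of overlapping thresholded regions of the replicates, the log2 ratio had a median of −0.02 and ran from −0.46 to 0.36 between its 10th and 90th percentiles. The strong region lay within that range and the weaker one above it, with 6.19% of pairs higher.

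**Figure D2:**
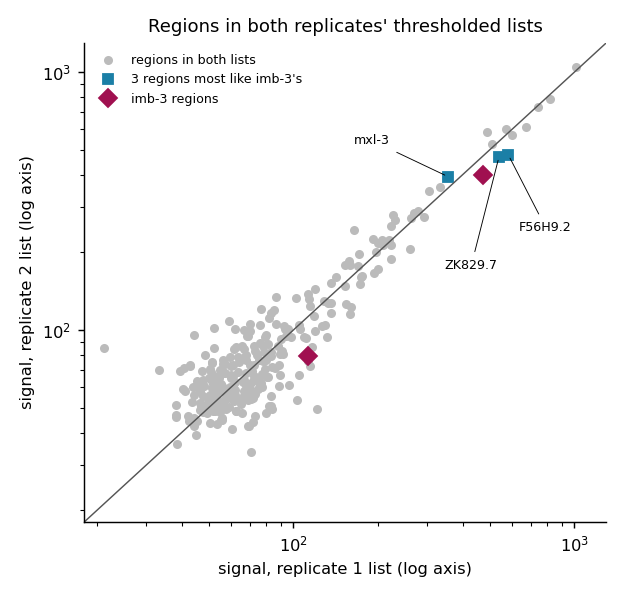
Signal in the replicate 2 list against signal in the replicate 1 list (both log axes) for the 291 pairs of overlapping thresholded regions, with the line of equal values. Both imb-3 regions lie below the line, at 474 against 398 and at 113 against 78.9, and the 3 regions most like the stronger one lie around it.

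The 3 regions most like the strong region of imb-3 were, in order, those of ZK829.7, F56H9.2 and mxl-3. That of ZK829.7 covered IV:11962035-11962335, 665 bp upstream of its 5′ end, with signal 539 in replicate 1 and 469 in replicate 2, a distance of 0.30. That of F56H9.2 covered V:12637225-12637571, 269 bp upstream, with 582 and 477, a distance of 0.39. That of mxl-3 covered X:13353544-13353806, 2865 bp upstream and so beyond the 2 kb used for the importin genes, with 355 and 393, a distance of 0.42. The choice of 3 regions divides near equals, since the next region, at V:19529247-19529532 with 510.1 and 528, was also at a distance of 0.42. All 3 were intergenic and had 1 CACGTG within 50 bp of the summit, at 10, 5 and 21 bp from it. mxl-3 encodes another Max-like protein of the worm, known for its part in the control of fat breakdown. Like imb-3 these genes were picked by signal, so the shared letters describe strong regions and nothing more.

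imb-1 encodes the importin beta that docks importin alpha cargo at the pore. It lies on the minus strand at I:4920683-4926486 (WBGene00002075), and no thresholded region came nearer than 151 kb in the whole-experiment list. Its strongest candidate had signal 16.2 in replicate 1, 17.6 in replicate 2 and 30.2 in the whole-experiment list, in a coding exon 1472 bp into the gene in replicate 1 and 1441 bp in replicate 2. This was the lowest mean of the 6 genes, 16.9 ± 0.981 (SD, n = 2), and 68.4% of protein-coding genes had a candidate as high or higher in replicate 1 and 61.1% in replicate 2. A CACGTG 2028 to 2033 bp into the gene, in a coding exon, lay under a candidate of signal 29.1 in the whole-experiment list and of 8.91 in replicate 2, and under none in replicate 1. The 5′ end of imb-1 is 149 bp from that of mfsd-13.1, which is read the other way, and a candidate between these genes had signal 30.2 in the whole-experiment list and 13.4 in replicate 2.

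imb-2 encodes a relative of mammalian transportin, which imports many RNA-binding proteins. It lies at II:14365701-14373901 (WBGene00002076), 31.3 kb from the nearest thresholded region of the whole-experiment list and 123 kb from that of either replicate. The strongest candidate had signal 26.3 in replicate 1 and 20.6 in replicate 2, but at different places, 2422 and 4651 bp into the gene. In the whole-experiment list it had 39.0 at 557 bp. The best matched pair of the replicates was there, in a coding exon, with 19.5 in replicate 1 and 18.4 in replicate 2. All candidates of imb-2 in these 3 lists lay inside the gene, the longest of the 6 at 8201 bp.

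The alpha importins had no thresholded region in any of the 4 lists. ima-1, at V:11239675-11241792 (WBGene00002072), had its strongest candidate 1065 bp upstream in replicate 1, with signal 16.0, and 332 bp upstream in replicate 2, with 21.5. Both places are in or beside dvc-1, whose 5′ end is 344 bp from that of ima-1 and which is read the other way. The E-box of ima-1 is 73 to 68 bp upstream of its 5′ end, nearer to a start than that of imb-3, and no candidate covered it in the whole-experiment list or in either replicate. The lists thus hold no candidate over these letters, which leaves binding below what they record undescribed.

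ima-2, which worms need for nuclear assembly in the embryo, lies at I:6315233-6317262 (WBGene00002073). Its strongest candidate lay 1782 bp into the gene in a coding exon, with signal 32.2 in replicate 1 and 47.1 in the whole-experiment list. That was the highest of the 5 genes without a region, reached or passed by 7.40% of protein-coding genes in replicate 1. In replicate 2 the overlapping candidate had 13.7, and the strongest of the gene was another, 957 bp into it, with 19.5, reached or passed by 50.7% of genes. The −log10 IDR of the candidate at 1782 bp was 0.981 in the whole-experiment list, the highest there of these 5 genes, and it misses the limit of 2. The nearest thresholded region was 21.1 kb away, upstream of pnk-1, a pantothenate kinase gene, with signal 236.

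ima-3, which worms need for oocyte development, lies on the minus strand at IV:7558726-7561664 (WBGene00002074). Its strongest candidate had signal 20.6 in replicate 1, in the 3′ UTR 2627 bp from the 5′ end, and 25.3 in replicate 2, in a coding exon 586 bp from it. The whole-experiment list had 40.5 at 572 bp, where replicate 1 had an overlapping candidate of 15.8. The nearest thresholded region lay 12.4 kb away, upstream of cec-4, which encodes a chromodomain protein that ties heterochromatin to the nuclear edge, with signal 119. Neither ima-2 nor ima-3 has a CACGTG within the gene or within 2 kb of its 5′ end.

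**Figure D3:**
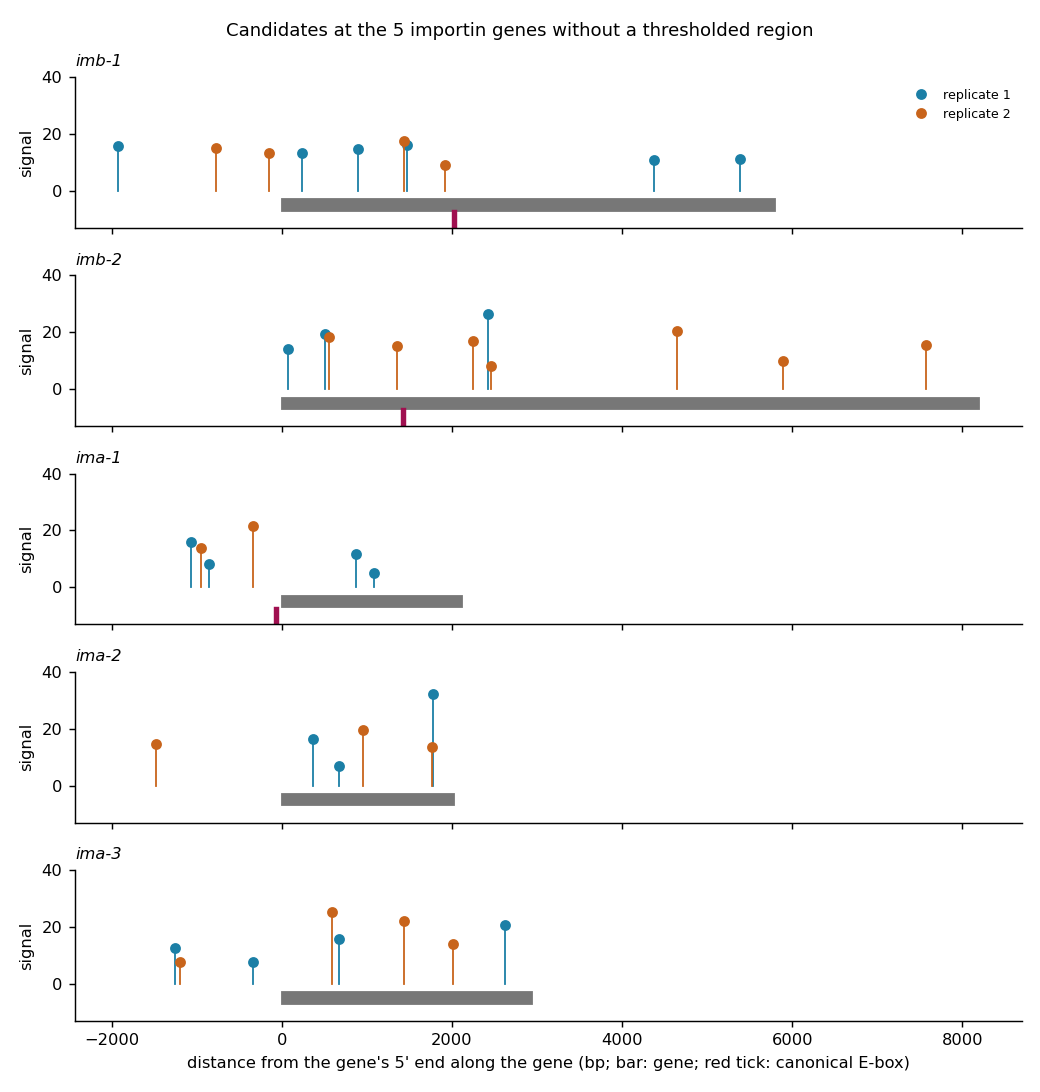
Signal of each candidate against the distance of its summit from the gene's 5′ end in bp, for the 5 importin genes without a thresholded region, with replicate 1 and replicate 2 in separate colours, the gene as a bar and canonical E-boxes as ticks. No signal passes 32.2, the replicates' candidates often lie at different places, and the tick upstream of ima-1 has none over it.

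Set in order by the mean of the replicates' deposited signals, the strongest candidates ran 436 for imb-3, 25.8 ± 8.94 for ima-2, 23.4 ± 4.05 for imb-2, 22.9 ± 3.36 for ima-3, 18.7 ± 3.84 for ima-1 and 16.9 ± 0.981 for imb-1 (SD, n = 2). In ima-2, imb-2, ima-3 and ima-1 the strongest candidates of the replicates lay at different places. Their means, SD and order therefore do not describe shared sites. The ima-2 candidate of 32.2 in replicate 1 overlapped one of 13.7 in replicate 2. imb-3 and ima-2 did not overlap, since the lower value of imb-3 was 398 and the higher of ima-2 was 32.2. The strength of imb-3 was known when the genes were chosen, so nothing is read from that gap. Every other pair of neighbours in the order overlapped between the replicates. The median protein-coding gene had a strongest candidate of 19.5 in replicate 1 and 19.6 in replicate 2, which lies within the values of the 5 genes. Only 10 protein-coding genes, 0.0501%, reached the signal of imb-3 or passed it in each of these lists, imb-3 itself among them.

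**Figure D4:**
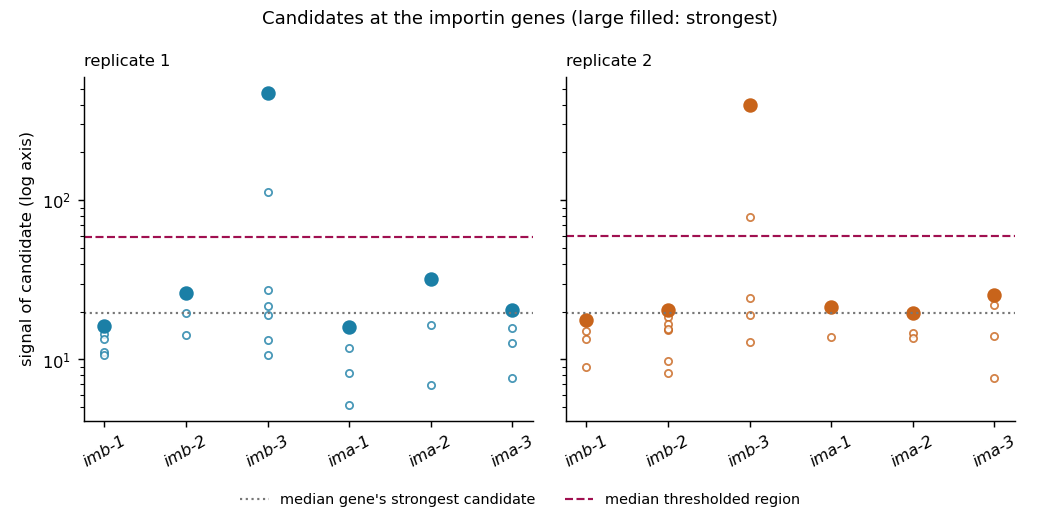
Signal of every candidate (log axis) at each importin gene in replicate 1 (left) and replicate 2 (right), with the strongest as a large filled point. Dotted lines mark the strongest candidate of the median gene (19.5 and 19.6) and dashed lines the median thresholded region (59.1 and 60.1): both imb-3 regions stand above the dashed line, and all candidates of the other genes below it.

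The candidates of the other 5 genes had median signals near those of their lists. There were 20 in replicate 1, with a median signal of 14.4 against 15.2 over that list, and 20 in replicate 2, with 15.2 against 15.7. The whole-experiment list had 29, with 24.6 against 22.5. None of them had CACGTG within 50 bp of the summit. The share of all ranked candidates with it was not computed, so nothing is read from that absence. The highest −log10 IDR among the candidates of these 5 genes was 0.514 in replicate 1 and 0.511 in replicate 2.

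The E-box letters occurred at more importin genes than thresholded regions did, and the same held over all protein-coding genes. Of the latter, 4.94% had a thresholded region in the whole-experiment list. CACGTG occurred within the gene or within 2 kb of the 5′ end in 4 of the 6 importin genes, against 55.8% of protein-coding genes, and within 500 bp of the 5′ end in 2 of 6, imb-3 and ima-1, against 16.5%. Of the 6 sites at these genes, 1 lay in a thresholded region. A candidate of the whole-experiment list covered 3, a candidate of replicate 1 covered 1 and a candidate of replicate 2 covered 3. The share of all CACGTG sites under a candidate was not computed, so nothing is read from these counts of covered sites.

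Beyond the 6 importin genes examined, 36 other genes of nuclear transport were looked up. They were 4 karyopherins (xpo-1, xpo-2, xpo-3 and tsr-1), 5 genes of the Ran cycle and 27 nucleoporins or pore assembly genes. Of the 36, 2 had a thresholded region in the whole-experiment list, which is 5.56% beside the 4.94% of all protein-coding genes, and none did in either replicate's list. Both are nucleoporin genes. npp-8, the relative of vertebrate Nup155, had its region at IV:1595844-1596103, 150 bp upstream, with signal 78.9 and rank 535. npp-6, the relative of Nup160, had its region at I:5176253-5176512, 446 bp upstream, with signal 67.3 and rank 762, and the 5′ end of spd-5 is nearer to that summit. Neither had CACGTG within 50 bp. None of the 4 karyopherins, xpo-2 among them, and none of the 5 Ran cycle genes had a region. The median strongest candidate of the 36 genes was 21.5 in replicate 1 and 22.4 in replicate 2, beside 19.5 and 19.6 for the median protein-coding gene. The highest candidate of any of them was 33.3 in replicate 1 and 39.0 in replicate 2. Beside these stand the 474 and 398 of imb-3, whose strength was known beforehand.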

How the data were processed

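MXL-2 ChIP-seq peak lists of 2 biological replicates of 1 group were analysed on ce11 (WBcel235), per the labels. The deposited signal of each line is the authors' enrichment value, compared between the replicates without rescaling, and the deposited −log10 IDR of the ranked lists was read as given by the authors. The names of the aligner and caller were not given in the sources used here. These lists hold no counts, so depth is unknown and no counting interval can be given. Thresholded lines are ranked candidates with an IDR up to 0.01, but some candidates past that limit are not in the thresholded lists. These number 121 in the whole-experiment list, 123 in the conservative list, 97 in replicate 1 and 68 in replicate 2.

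Overlapping thresholded lines were joined and the strongest summit kept. Genes came from Ensembl release 115, whose annotated 5′ ends are often trans-splice sites in this organism, and sequence from RefSeq. Coordinates count from 1. Python 3.11.15, numpy 2.4.6, pandas 2.3.3 and matplotlib 3.10.9 were used, and the assignment and motif steps were tested on simulated data. No test was run: there is 1 group, and the members and lists were chosen with earlier results of these data known. Named were the 6 importin genes, listed transport genes with a region, genes within 2 kb of the imb-3 summit and the 3 regions most like it. Other names (xpo-2, C53D5.5 and neighbours of the other importins) were chosen after their values were seen. npp-17 and npp-28 were not matched.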

Additional observations from a re-analysis of the deposited data

How the results depend on the processing

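imb-3 was the only importin gene with a thresholded region, and its strong region ranked 11, under every alternative tried: the conservative list, either replicate left out, every deposited line and, for the count, distances of 500 and 5000 bp, upstream only, nearest 5′ end only and the higher 50% of regions by signal. The genes were chosen with this region known, and no region lay nearer than 12.4 kb to another importin gene. The changes of distance could therefore not alter the count. The signal of the strong region was 878 in the whole-experiment and conservative lists and 398 to 474 with a replicate left out, where the whole-experiment and replicate lists may not share a scale. The count of importin genes with CACGTG fell from 4 to 2 within 500 bp of the 5′ end and to 1 within 50 or 100 bp of a thresholded summit. All 6 genes had a candidate in both replicates, but 4 among the 20000 candidates of highest signal and 1, imb-3, among the 5000. A candidate of any signal occurred at 88.4% of protein-coding genes in replicate 1 and 87.4% in replicate 2. Their shares among the 20000 and the 5000 were not computed, so nothing is read from that fall. Of the 2 other transport genes with a region, 0 to 0 remained with a replicate left out, 1 (npp-8) with the nearest 5′ end only and 0 among the higher 50% of regions; a distance of 5000 bp added npp-11, giving 3. The background of 4.94% became 2.33 to 2.38% with a replicate left out, 2.96% at 500 bp, 9.01% at 5000 bp, 2.87% upstream only, 3.17% by nearest 5′ end and 2.50% for the higher 50% of regions. No paired analysis was possible because there is 1 group. With 2 replicates and no read counts, small differences between weak candidates cannot be resolved.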
